A study of Mus musculus with 8 samples.

Results

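The Zbtb32 knockout label went with different RNA changes in the Tim-3+ terminally exhausted (Ttex) OT-I cells of B16-OVA tumors and in all sorted OT-I cells of such tumors. Macrophage and MHC class II genes were higher in Ttex libraries labelled knockout (KO) and lower in KO libraries of all sorted OT-I cells. Of these lists, only class II genes passed a test within Ttex cells alone. The cytokine gene Ifng was lower in KO libraries of all sorted OT-I cells, with no such fall in Ttex cells. A small group with Ctse and Tcf7 moved the same way in both populations. The genotype effect is the log2 fold change of KO over wild-type (WT) libraries within a population, and the comparison is between the 2 effects of each gene. The genes compared were the symbols in both deposited tables with a mean of at least 1 FPKM (fragments per kilobase of transcript, scaled to library size) in all sorted OT-I cells and a mean of at least 10 normalized counts in Ttex cells. Of 19337 symbols in either table, 11257 were in both and 8958 met both minimums. Another 2239 were under the FPKM minimum only, 2 under the count minimum only and 58 under both. The FPKM bound is the one that mattered, with 1178 genes from 1 to 2 FPKM just inside it and 885 genes from 0.5 to 1 FPKM just outside it, against 10 genes from 10 to 20 normalized counts just inside the other. The mean of 370 shared genes was over 1 FPKM in 1 genotype only, 69 in KO and 301 in WT, so they entered through the group where they are high, and 32 of them were among the genes called for a difference below. In the lists these were Klf2, Hba-a2, Ier5, C1qc, Csf1r and Adgre1, and their calls are no support for a list.

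OT-I cells are mouse CD8+ T cells whose transgenic receptor recognises a peptide of ovalbumin, and B16-OVA is a melanoma line that makes ovalbumin. Per the labels, naive Zbtb32-/- OT-I cells and naive WT OT-I cells were given together to B6 mice 1 day ahead of the subcutaneous B16-OVA graft, and each genotype was sorted from the tumors 30 days after it. The 4 groups were Ttex KO, Ttex WT, all sorted OT-I KO and all sorted OT-I WT, with 2 libraries of polyadenylated RNA each. All of them share the receptor, the host strain, the tumor and the time, and the labels name no subset gate for the all sorted OT-I cells, which may therefore hold Tim-3+ cells too. The labels do not tie the replicates to animals, so the p-values measure the spread between these libraries, which may be technical. The 2 tables were normalized separately, so only effects within a table are set against each other and no level is compared across tables. Recovered depth was 51.6 to 59.2 M reads (M for mega) in Ttex libraries and 18.5 to 21 M in libraries of all sorted OT-I cells.

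As background, CD8+ T cells under lasting antigen in a tumor become exhausted. Progenitor exhausted cells keep the transcription factor TCF-1 (gene Tcf7), divide slowly and give rise to terminally exhausted cells, which carry Tim-3 (gene Havcr2) and high PD-1 (gene Pdcd1) and keep cytotoxic molecules. Zbtb32 belongs to the BTB zinc finger family of transcription factors, many members of which repress their targets.

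Zbtb32 RNA was no lower in KO than in WT libraries. Its gene is on the minus strand of chromosome 7, between 30589681 and 30598909 (GENCODE M21, GRCm38). In Ttex cells it had 6822 and 5715 normalized counts in KO libraries, against 3976 and 3951 in WT libraries. In all sorted OT-I cells it had 94.9 and 73.0 FPKM in KO libraries, against 79.8 and 87.1 FPKM in WT libraries. Both Ttex KO libraries were above both WT libraries, and the genotypes overlapped in FPKM in all sorted OT-I cells, where after centring both KO libraries were above both WT libraries. The 2 effects, 0.75 and 0.24, differed by 0.51 ± 0.22 (SE, limma interaction, adjusted p = 0.159). The sources used here do not say which part of the gene is missing, so its RNA does not check the labels, and KO below means a library that carries that label.

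A difference of the genotype effect was tested with limma on log2(value + 1), each library centred on its median gene, as (KO minus WT in Ttex cells) minus (KO minus WT in all sorted OT-I cells). Of the 8958 genes, 576 (6.43%) passed at an adjusted p under 0.05, with 366 (4.09%) higher in Ttex cells and 210 (2.34%) lower. Without centring the split was 930 higher and 88 lower, since the median gene stood at -0.10 in Ttex cells and at -0.24 in all sorted OT-I cells before centring. In 275 of the 366 genes (3.07% of all) the effect was above 0 in Ttex cells and below 0 in all sorted OT-I cells, and in 204 of the 210 (2.28% of all) it was the reverse. Within each population, limma called 12 genes higher (0.134%) and 1 lower (0.0112%) among the shared genes in Ttex cells (0.145% either way). The counts in all sorted OT-I cells were 866 higher (9.67%) and 1049 lower (11.7%), together 21.4%. Over all genes of each table the counts were 14 higher (0.112%) and 1 lower (0.00798%) of 12534 in Ttex cells (0.12% either way), and 971 higher (10.1%) and 1122 lower (11.7%) of 9574 in all sorted OT-I cells (21.9%). That near-even split depended on the centring, with 235 higher and 2909 lower in all sorted OT-I cells without it, and the authors' deposited table gave 744 higher and 2275 lower by its own adjusted p. Both calls were made for 11 genes (0.123%), and the small Ttex count leaves few genes to compare by calls. The test of the difference depended on single libraries. It called 1226 genes without Ttex KO replicate 1, 2074 without Ttex KO replicate 2, 179 without Ttex WT replicate 1, 73 without Ttex WT replicate 2, 90 without OT-I KO replicate 1, 63 without OT-I KO replicate 2, 41 without OT-I WT replicate 1 and 763 without OT-I WT replicate 2.

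Across all 8958 genes the 2 effects had opposite signs in 58.7%, with 2568 (28.7%) above 0 in Ttex cells and below 0 in all sorted OT-I cells, against 2693 (30.1%) with the reverse signs. Pearson's r between them was -0.156 and Spearman's rho -0.227, as a description across genes, which are not independent. The 2 comparisons share no library, but the cells of each come from the same kind of tumor and sort. The correlation was near 0 in genes of 1 to 2 FPKM (r = -0.024, 1178 genes) and of 2 to 5 FPKM (r = 0.025, 2054 genes), -0.092 in 1677 genes of 5 to 10 FPKM, -0.293 in 2952 genes of 10 to 50 FPKM and -0.614 in 1097 genes over 50 FPKM.

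**Figure D1:**
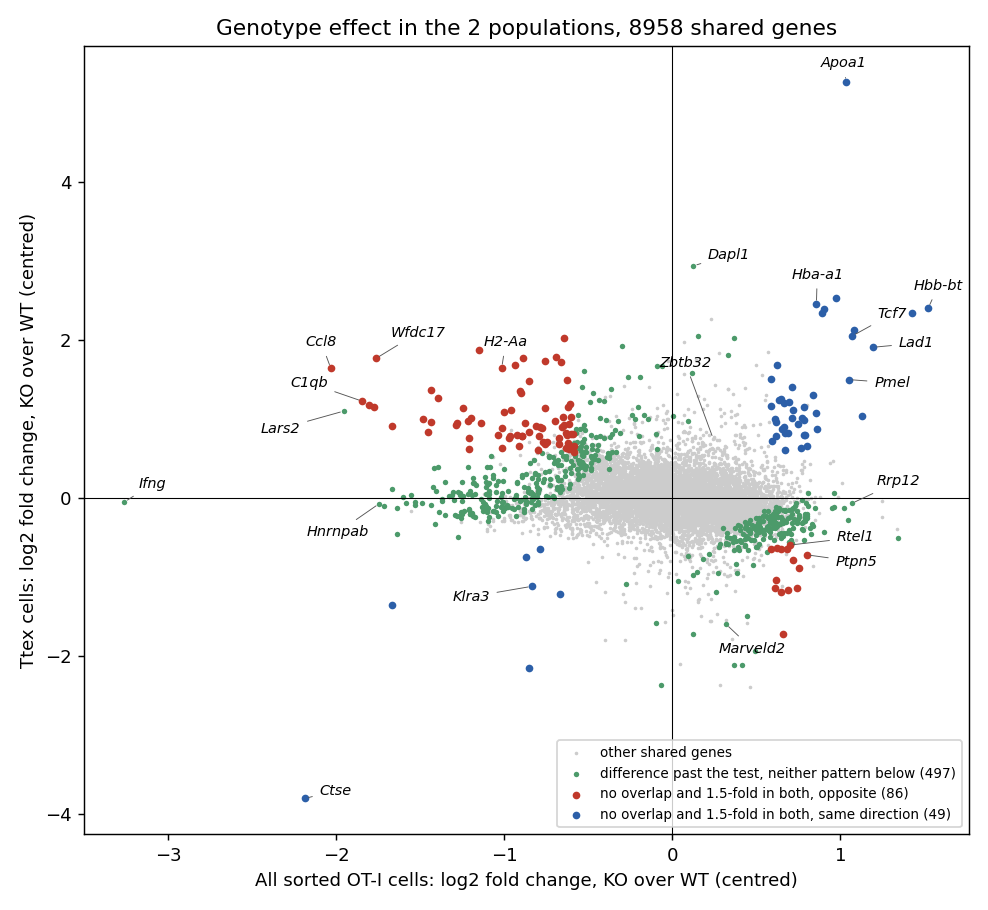
Genotype effect of each of 8958 shared genes, as the centred log2 fold change of KO over WT libraries in Ttex cells (vertical axis) and in all sorted OT-I cells (horizontal axis). Blue points are the 49 genes without overlap between genotypes and at least 1.5-fold in both populations in the same direction, red points the 86 in opposite directions, and green points other genes past the test of the difference. Ctse lies far to the lower left, Ifng far to the left at a Ttex effect near 0, and the macrophage genes Ccl8 and C1qb in the upper left.

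Because so few genes passed in Ttex cells alone, direction is described here by a rule with no test: both KO libraries above or both below both WT libraries, with a centred change of at least 1.5-fold. In Ttex cells 375 genes were higher (4.19%) and 168 lower (1.88%) by it, 6.06% either way, and in all sorted OT-I cells 356 were higher (3.97%) and 652 lower (7.28%), 11.3% either way. It held in both populations in the same direction for 49 genes (0.547%), of which 42 (0.469%) were higher and 7 (0.0781%) lower in KO libraries, against 15 higher and 17 lower without centring. It held in opposite directions for 86 genes (0.96%), of which 72 (0.804%) were higher in Ttex KO and lower in OT-I KO libraries and 14 (0.156%) the reverse.

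Among the genes that moved together, Ctse and Tcf7 carried calls in both populations. Ctse, on chromosome 1 from 131638306 to 131675505, encodes cathepsin E, an aspartic protease of endosomes. It had 357 and 282 normalized counts in Ttex KO libraries, against 5066 and 4452 in Ttex WT libraries. In all sorted OT-I cells it had 6.97 and 6.51 FPKM in KO libraries, against 39.2 and 42.4 FPKM in WT libraries. All 4 KO libraries were far below the WT libraries of their population. Ctse fell by 3.81 ± 0.19 on the log2 scale in Ttex cells (SE, limma adjusted p = 0.00782) and fell by 2.19 ± 0.17 in all sorted OT-I cells (adjusted p = 1.02e-10). The difference of -1.62 ± 0.22 passed too (adjusted p = 0.00399), in every alternative run, so the fall was larger in Ttex cells.

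Tcf7, on chromosome 11 from 52252371 to 52283014, had 2646 and 2536 normalized counts in Ttex KO libraries, against 651 and 678 in Ttex WT libraries. It had 20.8 and 20.1 FPKM in KO libraries of all sorted OT-I cells, against 10.6 and 11.6 FPKM in WT libraries. Both KO libraries were above both WT libraries in each population. Tcf7 rose by 2.05 ± 0.15 in Ttex cells (limma adjusted p = 0.0386) and by 1.07 ± 0.16 in all sorted OT-I cells (adjusted p = 1.33e-05). The rise was larger in Ttex cells by 0.98 ± 0.18 (adjusted p = 0.0164), a call lost without any of OT-I KO replicates 1 and 2, OT-I WT replicate 1 and Ttex WT replicates 1 and 2 (adjusted p up to 0.096).

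Lad1, which encodes the anchoring protein ladinin, had 1300 and 1479 normalized counts in Ttex KO libraries, against 382 and 403 in Ttex WT libraries. It had 24.2 and 20.7 FPKM in KO libraries of all sorted OT-I cells, against 9.97 and 12.3 FPKM in WT libraries. It rose in both populations, by 1.91 in Ttex cells (limma adjusted p = 0.0431) and by 1.2 in all sorted OT-I cells (adjusted p = 3.62e-06), and the difference of 0.71 ± 0.20 missed the threshold (adjusted p = 0.0568). Pmel, the structural protein of melanosomes, rose by 1.5 in Ttex cells (adjusted p = 0.0386) and by 1.05 in all sorted OT-I cells (adjusted p = 1.11e-05). The natural killer receptor gene Klra3 had 462 and 389 normalized counts in Ttex KO libraries, against 947 and 1022 in Ttex WT libraries, and 15.0 and 12.4 FPKM against 31.4 and 28.7 FPKM in all sorted OT-I cells. Its effects of -1.12 and -0.84 did not differ by test (-0.28 ± 0.22, adjusted p = 0.429), and only the second passed within its population (adjusted p = 0.000723).

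Progenitor and memory genes were 8 of the 49 genes of shared direction. Of 25 listed, 24 were among the shared genes. Within all sorted OT-I cells limma called 11 higher and none lower, beside 9.67% of all shared genes called higher. Within Ttex cells it called Tcf7 alone higher. By the rule of no overlap and 1.5-fold, 11 members were higher in Ttex KO libraries, beside 4.19% of all shared genes. The members higher without overlap and at least 1.5-fold in both populations were 8, beside 0.469% of all shared genes. Among them were Bach2, Ccr6, Ccr7, Cxcr5, Id3, Slamf6 and Tcf7. The median effect of the list was 0.48 in Ttex cells and 0.22 in all sorted OT-I cells, beside -0.01 and 0.01 over all shared genes, and without centring it was -0.03 in all sorted OT-I cells. Id3, a partner and inhibitor of E proteins, had 220 and 189 normalized counts in Ttex KO libraries, against 64.1 and 69.7 in Ttex WT libraries, and 8.19 and 6.15 FPKM against 5.20 and 5.27 FPKM in all sorted OT-I cells. All 4 KO libraries were above the WT libraries of their population, but Id3 did not pass within Ttex cells (limma adjusted p = 0.19), and its difference of 1.06 missed the threshold too (adjusted p = 0.0641).

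Slamf6, a surface receptor of progenitor exhausted cells, had effects of 0.64 in Ttex cells and 0.77 in all sorted OT-I cells, and the difference was -0.13 ± 0.29 (limma adjusted p = 0.81). Ccr7, the receptor that guides cells to lymph nodes, had effects of 0.98 and 0.78 with a difference of 0.20 ± 0.21. Of the 24 shared genes of the list, 3 passed the test of the difference, all higher in Ttex cells, beside 4.09% of all shared genes. They were Tcf7, the quiescence factor Klf2 (0.99) and the chemokine gene Xcl1 (1.74). Xcl1 had 14115 and 9706 normalized counts in Ttex KO libraries, against 5921 and 3880 in Ttex WT libraries, and 402 and 330 FPKM in KO libraries of all sorted OT-I cells, against 658 and 470 FPKM in WT libraries. Its KO libraries were above the WT libraries in Ttex cells, and in all sorted OT-I cells the genotypes overlapped once the libraries were centred. The call for Xcl1 was lost without any of 4 libraries (adjusted p up to 0.161), and that for Klf2 likewise (up to 0.151). Klf2 averaged 0.717 ± 0.092 FPKM in KO libraries and 1.35 ± 0.38 FPKM in WT libraries (SD, n = 2 each), so it met the minimum through the WT group only.

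**Figure D2:**
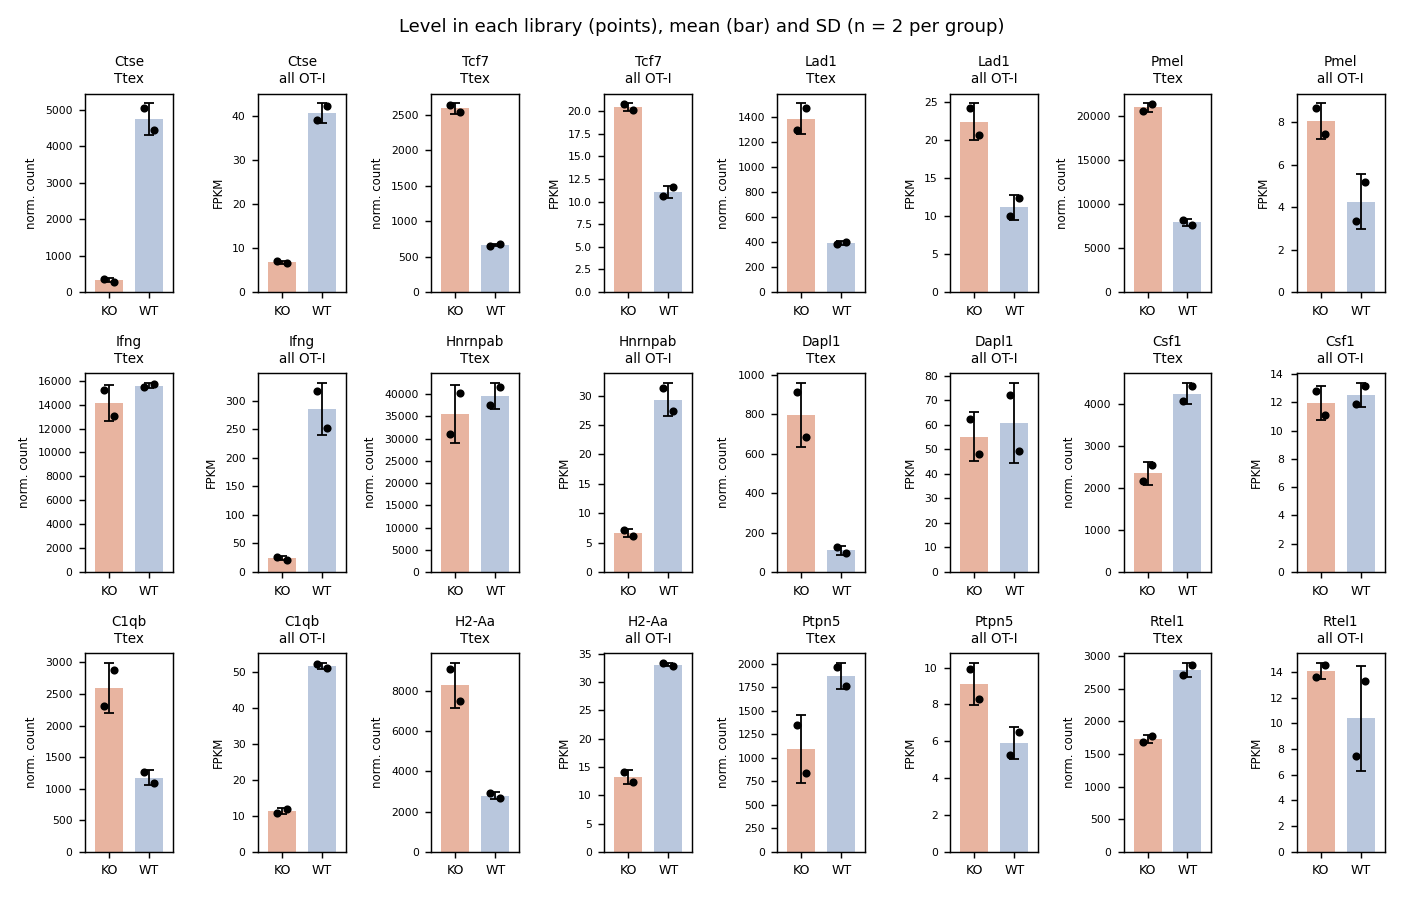
Level of 12 named genes in each library, as normalized counts in Ttex cells (left panel of each pair) and FPKM in all sorted OT-I cells (right panel), with KO left of WT. Points are libraries, bars the mean and whiskers the SD of 2 libraries. Ctse is low in KO libraries of both populations, Tcf7 is high in them, and C1qb and H2-Aa are high in Ttex KO libraries and low in OT-I KO libraries.

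MHC class II genes had the largest median difference of the lists with at least 3 shared members, 2.24, with a median effect of 1.34 in Ttex cells and -0.83 in all sorted OT-I cells. Class II molecules present peptides to CD4+ T cells and are made by macrophages, dendritic cells and B cells. Their genes share promoter elements, of which the Y box holds the letters GATTGG. Of the 8 listed genes, RefSeq promoter entries of 5 were searched for these letters. Cd74 was left out of the search, so its promoter was not tested. For the 4 genes that hold the letters, the last 150 bases before the start site are printed (GRCm38.p6). These bases are given on the strand of the gene, with GATTGG or its reverse complement CCAATC in capitals. H2-Aa lies on the minus strand (chr17:34287824-34287973), and the others on the plus strand are H2-Eb1 (chr17:34305717-34305866), H2-DMb1 (chr17:34153041-34153190) and H2-Oa (chr17:34092229-34092378).
H2-Aa: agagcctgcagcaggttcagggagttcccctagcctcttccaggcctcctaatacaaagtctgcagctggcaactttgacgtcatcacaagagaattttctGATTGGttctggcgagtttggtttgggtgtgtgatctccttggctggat
H2-Eb1: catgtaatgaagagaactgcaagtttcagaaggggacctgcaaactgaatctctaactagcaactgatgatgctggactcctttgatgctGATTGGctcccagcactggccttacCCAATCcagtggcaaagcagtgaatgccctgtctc
H2-DMb1: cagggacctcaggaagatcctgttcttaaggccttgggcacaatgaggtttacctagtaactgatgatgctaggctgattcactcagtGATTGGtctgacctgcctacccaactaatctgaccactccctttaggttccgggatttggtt
H2-Oa: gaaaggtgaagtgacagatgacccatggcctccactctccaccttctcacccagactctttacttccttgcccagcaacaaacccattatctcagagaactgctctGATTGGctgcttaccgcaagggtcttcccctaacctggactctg
GATTGG begins 49 bases before the start in H2-Aa, 60 in H2-Eb1, 62 in H2-DMb1 and 44 in H2-Oa, and H2-Eb1 holds CCAATC as well. Neither of the entries for H2-DMa holds it. Of 32851 such windows in the table, 10.9% hold the letters on either strand, so a match is a description of these promoters and not a binding site.

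H2-Aa, a chain of the classical class II molecule, had 9052 and 7473 normalized counts in Ttex KO libraries, against 2930 and 2660 in Ttex WT libraries. It had 14.1 and 12.4 FPKM in KO libraries of all sorted OT-I cells, against 33.3 and 32.8 FPKM in WT libraries. The genotypes did not overlap in either population and their order was reversed. It rose by 1.65 ± 0.15 in Ttex cells (limma adjusted p = 0.0431), fell by 1.02 ± 0.17 in all sorted OT-I cells (adjusted p = 5.59e-05) and differed by 2.67 ± 0.21 (adjusted p = 0.000111). Of the 8 listed genes, 5 passed the test of the difference, all higher in Ttex cells, beside 4.09% of all shared genes. They were H2-Aa, H2-Eb1 (2.67), H2-Ab1 (2.49), the peptide exchange factor subunit H2-DMb1 (2.25) and the invariant chain Cd74 (2.23). These 5 kept the call without any 1 library. H2-Oa, whose promoter holds the same letters, had 717 and 449 normalized counts in Ttex KO libraries, against 518 and 456 in Ttex WT libraries, and its difference of 0.54 missed the threshold (adjusted p = 0.29). Ciita, the class II transactivator, had effects of 1.07 in Ttex cells and 0.31 in all sorted OT-I cells (difference adjusted p = 0.23).

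Markers of macrophages, monocytes and dendritic cells were opposed in the same way. Of 25 listed, 21 were shared, 4 of them class II genes counted above. 18 of the 21 passed the test of the difference, all higher in Ttex cells, beside 4.09% of all shared genes. The rule of no overlap and 1.5-fold in opposite directions held for 16, beside 0.96% of all. Within all sorted OT-I cells limma called 18 lower, beside 11.7% of all shared genes. Within Ttex cells it called only the 4 class II genes higher, while 19 of the 21 were higher by the rule of no overlap and 1.5-fold. The 18 past the test of the difference include C1qc, Csf1r and Adgre1, with OT-I KO means of 0.93, 0.76 and 0.59 FPKM. They met the FPKM minimum through the WT group only, so their part in these counts is no support for the list. Ccl8, a chemokine of macrophages, had 2336 and 2165 normalized counts in Ttex KO libraries, against 848 and 690 in Ttex WT libraries, and 3.92 and 2.69 FPKM in KO libraries of all sorted OT-I cells, against 22.2 and 17.5 FPKM in WT libraries. Its difference of 3.68 ± 0.27 (limma adjusted p = 0.000111) was the highest of the genes chosen by the naming rule. Within Ttex cells its effect of 1.65 missed the threshold (limma adjusted p = 0.0512). C1qb, a chain of complement C1q, had 2311 and 2877 normalized counts in Ttex KO libraries, against 1261 and 1094 in Ttex WT libraries, and 10.7 and 11.9 FPKM against 52.2 and 50.9 FPKM in all sorted OT-I cells. Its KO libraries were above the WT libraries in Ttex cells and below them in all sorted OT-I cells (difference 3.07 ± 0.22, adjusted p = 0.000111). The C1qb effect of 1.23 within Ttex cells missed the threshold (limma adjusted p = 0.102). Wfdc17 (3.53), C1qa (2.98), the adaptor Tyrobp (2.92) and the lipid carrier Apoe (2.39) followed, and the antiviral membrane protein Ifitm3 was at 2.66. Tyrobp missed the threshold without OT-I WT replicate 1 (adjusted p = 0.0584).

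The summed level of the 21 markers was 123359 and 107040 normalized counts in Ttex KO libraries, against 55767 and 51452 in Ttex WT libraries. It was 603 and 521 FPKM in KO libraries of all sorted OT-I cells, against 1248 and 1141 FPKM in WT libraries. This sum is in large part a level of the class II genes counted above. Cd74 alone had 40812 and 38852 normalized counts in Ttex KO libraries, against 16993 and 16787 in Ttex WT libraries. In all sorted OT-I cells Cd74 had 130 and 127 FPKM in KO libraries, against 296 and 277 FPKM in WT libraries. A sum without the class II genes was not taken. No marker of the 21 was at 0, and Lyz2 and Cd68, defining genes of the lineage, had the same order of genotypes as the sum in both populations. Of the 21, 20 had an effect above 0 in Ttex cells and 1 in all sorted OT-I cells, with Itgax and Cd14 as the exceptions. The lineage markers Mrc1, Ms4a7, Fcgr2b and Itgam were not among the shared genes. The sum of the 7 shared CD8 T cell markers was 334254 and 303067 normalized counts in Ttex KO libraries, against 319908 and 298077 in Ttex WT libraries, and 1896 and 1591 FPKM against 2506 and 2256 FPKM in all sorted OT-I cells. Cells of another type in a sort and RNA made by the sorted cells cannot be told apart in these bulk libraries, nor can fewer cells of a type and less RNA per cell, and the part of such cells in these results was not tested.

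Markers of 2 other cell types moved the same way in both populations. All 7 shared melanoma markers were higher without overlap and at least 1.5-fold in Ttex KO libraries, beside 4.19% of all shared genes. In OT-I KO libraries 5 of them, Dct, Gpnmb, Pmel, Slc45a2 and Tyrp1, were so as well. The share higher in both was 0.469% of all shared genes. Their sum was 66665 and 69692 normalized counts in Ttex KO libraries, against 32513 and 33758 in Ttex WT libraries, and 23.4 and 21.3 FPKM against 12.8 and 16.6 FPKM in all sorted OT-I cells. Mlana, a melanocyte antigen, was the exception, with effects of 1.05 and -0.24 and a difference of 1.29 (limma adjusted p = 0.00931). The 4 globin genes were higher without overlap in both, with a summed level of 17743 and 10551 normalized counts in Ttex KO libraries, against 3372 and 2101 in Ttex WT libraries, and 22.1 and 14.8 FPKM against 9.94 and 7.78 FPKM in all sorted OT-I cells. Hba-a1 and Hba-a2 are near-identical copies, so reads may be split between them, and their differences of 1.6 and 1.56 were lost with edgeR on recovered reads and with a pseudocount of 0.1 on FPKM. Hba-a2 lost it with DESeq2 as well, and it met the FPKM minimum through the KO group only. Apoa1, a lipoprotein gene picked out after its values were seen, had 189 and 351 normalized counts in Ttex KO libraries, against 12.2 and 2.83 in Ttex WT libraries, and 3.24 and 2.44 FPKM against 1.17 and 1.25 FPKM in all sorted OT-I cells. It met the count minimum through the Ttex KO group only, where it is high, so it is no support for a pattern.

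**Figure D3:**
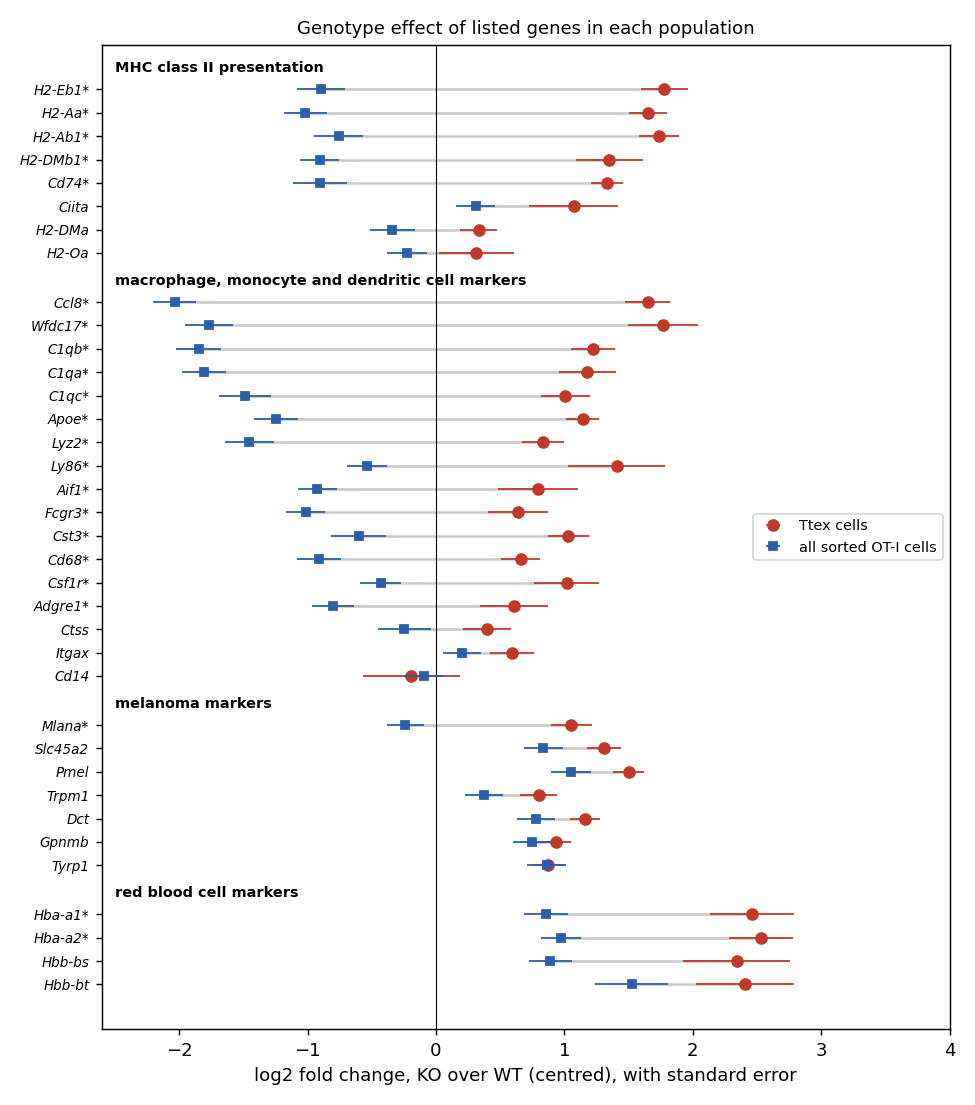
Centred log2 fold change of KO over WT libraries with its standard error for the shared members of 4 lists, in Ttex cells (red circles) and in all sorted OT-I cells (blue squares), with a star where the difference passed the test. Class II genes that are also in the macrophage list are drawn once, under class II. The class II and macrophage genes lie above 0 in Ttex cells and below 0 in all sorted OT-I cells, except Ciita, Itgax and Cd14, and the melanoma and globin genes lie above 0 in both populations except Mlana.

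The reverse pattern, lower in Ttex KO libraries and higher in OT-I KO libraries, held for 14 genes. Ptpn5, a tyrosine phosphatase, had 1350 and 835 normalized counts in Ttex KO libraries, against 1968 and 1768 in Ttex WT libraries. It had 9.92 and 8.30 FPKM in KO libraries of all sorted OT-I cells, against 5.28 and 6.53 FPKM in WT libraries. The order of the genotypes was reversed, with a difference of -1.52 ± 0.30 (limma adjusted p = 0.0199). Rtel1, a helicase of telomeres, had 1685 and 1767 normalized counts in Ttex KO libraries, against 2709 and 2861 in Ttex WT libraries, and 13.6 and 14.5 FPKM against 7.47 and 13.3 FPKM in all sorted OT-I cells. OT-I WT replicate 1 was the low library there, as it was for the potassium channel gene Kcnk5 (-1.33), the adhesion receptor gene Adgrg1 (-1.23) and the motor protein gene Myo1c (-1.25). These 5 differences missed the threshold without OT-I WT replicate 1 and without 4 other libraries each (adjusted p up to 0.19). Cyb5d1, also of this pattern, missed it with all libraries in the fit (-1.75, adjusted p = 0.0574).

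Genes changed in all sorted OT-I cells only met the rule there, stood within 0.2 of 0 in Ttex cells and passed the test of the difference. There were 126 lower (1.41%) and 26 higher (0.29%) in KO libraries. Ifng, the gene of interferon gamma on chromosome 10 from 118441046 to 118445892, led them. It had 15219 and 13085 normalized counts in Ttex KO libraries, against 15444 and 15759 in Ttex WT libraries, and 26.6 and 21.6 FPKM in KO libraries of all sorted OT-I cells, against 318 and 253 FPKM in WT libraries. The Ttex values lay close together, and the OT-I values of the genotypes were far apart. Its effect was -0.05 ± 0.13 in Ttex cells (limma adjusted p = 0.894) and it fell by 3.26 ± 0.20 in all sorted OT-I cells (adjusted p = 9.21e-13), with a difference of 3.21 ± 0.25 (adjusted p = 0.000111) that held in every alternative run.

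The other named genes of the lower group are general cell genes. Hnrnpab, an RNA-binding protein, had 30960 and 40223 normalized counts in Ttex KO libraries, against 37569 and 41695 in Ttex WT libraries, and 7.07 and 6.17 FPKM in KO libraries of all sorted OT-I cells, against 31.3 and 27.3 FPKM in WT libraries. Only the OT-I libraries separated by genotype. Differences of this kind were 1.78 for the LIM protein Csrp1, 1.62 for Odc1, the first enzyme of polyamine synthesis, 1.61 for the translation initiation subunit Eif3b and 1.59 for the G protein subunit Gnai2. All of these but Odc1 kept the call without any 1 library. Odc1 lost it without OT-I KO replicates 1 or 2, OT-I WT replicate 1 or Ttex WT replicate 2 (adjusted p up to 0.0847).

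The higher group of all sorted OT-I cells was led by Rrp12 (-1.14) and Tcof1 (-0.98), both of ribosome production, Rasa3 (-1.14), a Ras GTPase-activating protein, Mical1 (-1.08), Wdr6 (-1.07) and Ciz1 (-0.91), where the sign is that of the Ttex effect minus the OT-I effect. Rrp12 had 1332 and 1943 normalized counts in Ttex KO libraries, against 1843 and 1757 in Ttex WT libraries, and 19.6 and 19.2 FPKM against 8.43 and 13.1 FPKM in all sorted OT-I cells. OT-I WT replicate 1 was again the lowest library for each of these 6 genes, and none of them passed without it, nor without any of 4 other libraries (adjusted p up to 0.205).

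Genes changed in Ttex cells only were fewer, with 12 higher (0.134%) and 8 lower (0.0893%) in KO libraries. Dapl1, on chromosome 2 from 59484653 to 59505020, encodes a small protein related to the death-associated protein DAP. It had 912 and 682 normalized counts in Ttex KO libraries, against 125 and 94.2 in Ttex WT libraries, and 62.2 and 48.3 FPKM in KO libraries of all sorted OT-I cells, against 72.4 and 49.2 FPKM in WT libraries. The Ttex genotypes were far apart and the OT-I genotypes overlapped. It rose by 2.94 ± 0.31 in Ttex cells (limma adjusted p = 0.0472), with an effect of 0.12 ± 0.21 in all sorted OT-I cells and a difference of 2.81 ± 0.34 (adjusted p = 0.00225) in every alternative run. Apobec2, of the cytidine deaminase family, had 489 and 398 normalized counts in Ttex KO libraries, against 201 and 131 in Ttex WT libraries (difference 1.72, adjusted p = 0.023), a call lost without 4 of the libraries.

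Csf1, the growth factor of macrophages, had 2156 and 2539 normalized counts in Ttex KO libraries, against 4071 and 4432 in Ttex WT libraries. In all sorted OT-I cells it had 12.8 and 11.1 FPKM in KO libraries, against 11.9 and 13.1 FPKM in WT libraries. The genotypes separated in Ttex cells and overlapped in FPKM in all sorted OT-I cells, where after centring both KO libraries were above both WT libraries by less than the 1.5-fold of the rule. The difference was -0.95 ± 0.19 (limma adjusted p = 0.0224). Ide, the insulin-degrading enzyme (-0.82), and the chaperone gene Clgn (-1.10) were also lower in Ttex KO libraries, with overlap in all sorted OT-I cells. Marveld2, which encodes the tight junction protein tricellulin, had the lowest difference of the named genes, -1.92 ± 0.25 (adjusted p = 0.00338), with 171 and 185 normalized counts in Ttex KO libraries against 615 and 541 in Ttex WT libraries. Its effect of 0.32 in all sorted OT-I cells is outside the bound of 0.2, so it is not of the group changed in Ttex cells only. Csf1, Ide and Clgn lost the call without any of 5 libraries, and Marveld2 kept it.

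Effector cytokines and cytotoxic molecules had a median effect of 0.20 in Ttex cells and of -0.29 in all sorted OT-I cells, with 29 of 30 listed genes shared. Of these, 6 differences were higher in Ttex cells and 1, Csf1, lower. Over all shared genes 4.09% of differences were called higher and 2.34% lower. Within all sorted OT-I cells limma called 10 lower, among them Ifng, Ccl3, Ccl4, Gzmc and Gzmk, and 1, Gzmg, higher. The shares over all shared genes were 11.7% lower and 9.67% higher. Within Ttex cells none of the list passed by limma. Gzma, a tryptic granzyme, had 2278 and 2558 normalized counts in Ttex KO libraries, against 1329 and 1691 in Ttex WT libraries, and 15.3 and 10.9 FPKM against 33.1 and 26.7 FPKM in all sorted OT-I cells (difference 1.67, adjusted p = 0.00828). Gzmb, the main granzyme of these cells, had effects of -0.15 and -0.31 and a difference of 0.16 ± 0.29 (adjusted p = 0.75).

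Of 27 inhibitory receptors and exhaustion factors, 24 were shared, with medians of -0.08 in Ttex cells and 0.11 in all sorted OT-I cells (-0.14 in all sorted OT-I cells without centring). Of these, 1, Cd101, passed the test of the difference (-0.77, limma adjusted p = 0.0493). It did not pass without centring, with centring on the upper quartile, without the filter on low values or with a trend by exon length removed. Havcr2, the gene of Tim-3 and thus of the gate that defines Ttex cells, had 10828 and 10642 normalized counts in Ttex KO libraries, against 15862 and 15935 in Ttex WT libraries, and 171 and 148 FPKM against 154 and 183 FPKM in all sorted OT-I cells. Its effects of -0.47 and 0.17 differed by -0.64 ± 0.20 (limma adjusted p = 0.0746), which passed with edgeR (adjusted p = 0.0422) and DESeq2 (adjusted p = 0.00888) on recovered reads. Of 20 alternative runs in all, 4 passed, so the call depends on the method. For Pdcd1 the difference was -0.54 ± 0.26 (limma adjusted p = 0.197, and 0.0359 with DESeq2) and for Tox, a driver of the exhausted state, -0.36 ± 0.19 (adjusted p = 0.234). The Pdcd1 difference missed the threshold with edgeR and passed in 3 of 20 alternative runs. The proliferation gene Mki67 fell in all sorted OT-I cells (-0.91, adjusted p = 0.000231), with -0.21 in Ttex cells and a difference of 0.69 ± 0.20 (adjusted p = 0.0601).

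Ribosomal proteins and the respiratory chain showed the opposed pattern on a smaller scale. All 34 shared cytosolic ribosomal protein genes had an effect above 0 in Ttex cells and 33 of them below 0 in all sorted OT-I cells, with medians of 0.64 and -0.55. Of the 34, limma called 12 lower in all sorted OT-I cells, beside 11.7% of all shared genes, and none in Ttex cells. The difference passed for 5, beside 4.09% of all called higher: Rps27 (1.45), Rpl26 (1.39), Rpl35 (1.28), Rpl22 (1.16) and Rps19 (1.15). Of these, Rps27, Rpl26, Rpl35 and Rpl22 had limma adjusted p from 0.0285 to 0.0481 and did not pass without the filter on low values. Of 39 genes of the respiratory chain and ATP synthase, 12 differences passed, all higher in Ttex cells, with medians of 0.38 and -0.48. Among these, Atp5e, Cox7b, Cox6c and Ndufa4 did not pass without the filter on low values. Of the 13 protein genes of the mitochondrial genome, 11 passed, all higher in Ttex cells, and mt-Nd1 and mt-Nd4l missed the threshold. That set was looked at after its values were seen. All 13 were higher in OT-I WT replicate 1 than in replicate 2, mt-Atp6 with 199.7 against 80.7 FPKM, and the part of that library in these calls was not tested except for mt-Nd3. Its member mt-Nd3, a subunit of complex I, had 714 and 646 normalized counts in Ttex KO libraries, against 367 and 212 in Ttex WT libraries, and 8.70 and 7.05 FPKM against 34.2 and 21.8 FPKM in all sorted OT-I cells (difference 2.81, limma adjusted p = 0.00399, and 0.0501 without OT-I WT replicate 1). Lars2, the mitochondrial leucyl-tRNA synthetase, differed by 3.06 (adjusted p = 0.0186), with overlapping Ttex libraries at 142810 and 66682 normalized counts in KO and 77928 and 30188 in WT.

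Counts in the remaining lists stand beside 4.09% of all shared genes higher and 2.34% lower. Those higher in Ttex cells were 4 of 22 immediate-early and AP-1 genes (Jund 1.57, Atf3 1.56, Ier5 1.23 and Zfp36l2 0.97), 3 of 31 genes of T cell receptor signalling (Dusp2 1.03, Dusp5 1.01 and Fyn 0.93), 3 of 20 genes of the type I interferon response (Ifitm3, Ifitm2 at 1.97 and Rtp4 at 1.30), 2 of 12 NK-type receptors and adaptors (Tyrobp and Fcer1g at 2.19) and 1 of 23 genes of the interferon gamma response and MHC class I (Cxcl9 at 2.09). Lower in Ttex cells were 1 of 40 cell cycle genes (Bub1b, -1.16), 2 of 24 of cholesterol and fatty acid synthesis (Acly, -1.10, and Lss, -0.91), 1 of 21 of gamma-chain cytokine receptors and JAK-STAT5 (Il4ra, -0.90) and 1 of 18 heat shock proteins and chaperones (Hspa1a, -0.88). Glycolysis and hypoxia genes had 1 each way of 24 (Higd1a 0.96 and Slc2a3 -0.90), and chemokine receptors, adhesion and residency genes 0 of 23 by limma, with Itgb2 at -0.80 and an adjusted p of 0.0736. Of the smaller marker lists, the endothelial gene Pecam1 (-0.92) passed, and the B cell genes Cd79a and Cd79b, the CD4 and regulatory T cell genes Foxp3, Il2ra and Ikzf4, the myeloid gene Il1b and the 7 CD8 T cell markers did not.

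**Figure D4:**
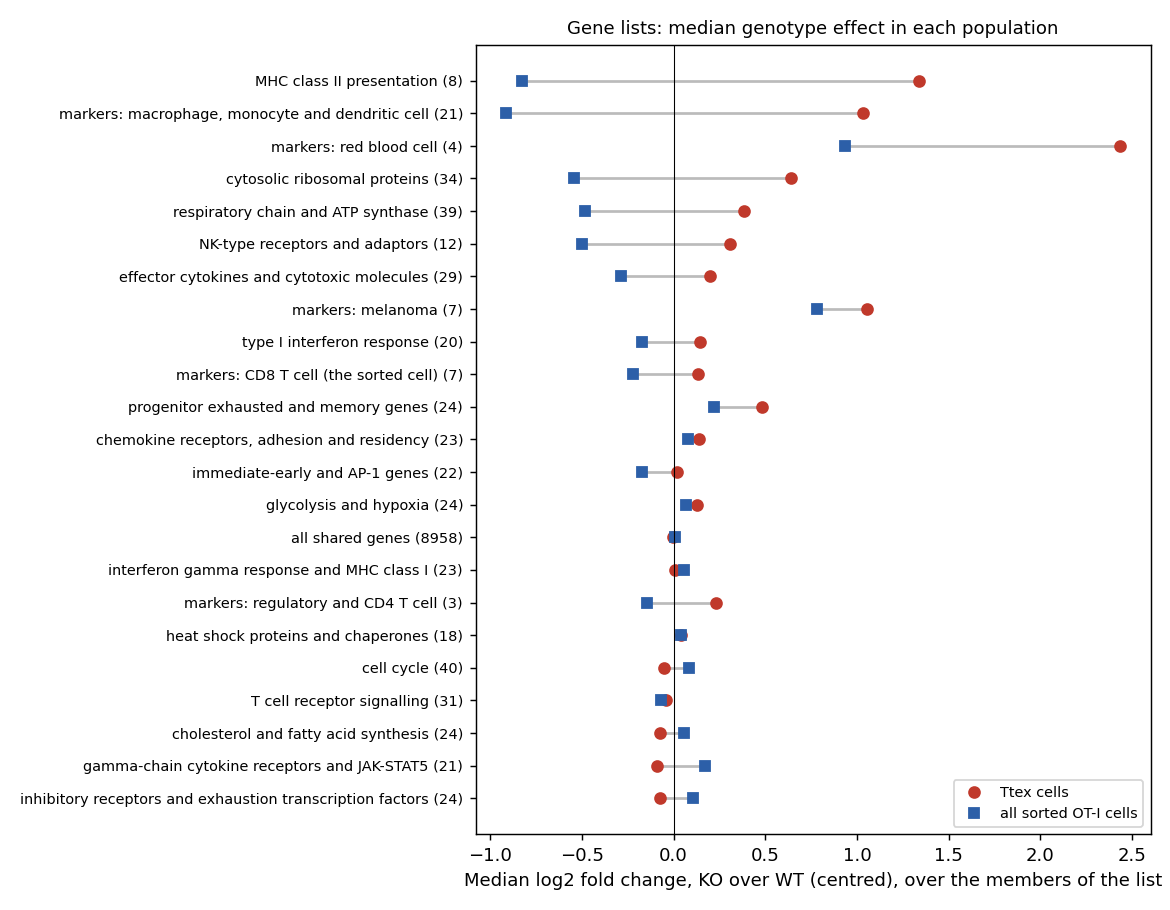
Median centred log2 fold change of KO over WT libraries over the shared members of each list with at least 3 of them (number in brackets), in Ttex cells (red circles) and in all sorted OT-I cells (blue squares), joined by a line. Class II, macrophage, ribosomal and respiratory lists lie on opposite sides of 0 in the 2 populations. So do other lists, among them the effector, NK-type, type I interferon, inhibitory receptor, cell cycle and CD8 T cell marker lists. The progenitor, melanoma and globin lists lie above 0 in both, as do the chemokine receptor, heat shock, glycolysis and interferon gamma lists.

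The genotype effect varied with merged exon length, most in the shortest genes, where its median had opposite signs in the 2 populations. In the shortest 896 genes by merged exon length (204 to 1761 bases) the median effect was 0.31 in Ttex cells and -0.30 in all sorted OT-I cells, and 123 differences were called higher in Ttex cells and 2 lower. In the fifth decile (3690 to 4374 bases) the medians were -0.04 and 0.12, with 26 called higher and 37 lower. In the longest decile (9596 to 35542 bases) both medians were below 0, at -0.04 and -0.03, with 17 called higher and 18 lower. The genes called higher in Ttex cells had a median length of 2629 bases, those called lower 5315 bases and all shared genes 4374 bases. The cause of this trend was not tested.

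A fit with the length trend removed from each library, an alternative chosen after the data were seen, called 590 genes, of which 402 were among the 576, with r = -0.068 between the effects. The median difference was then 1.86 for class II genes and 1.85 for macrophage markers, with 5 of 8 and 17 of 21 past the test, and 0.78 for ribosomal proteins (4 of 34), 0.37 for the respiratory chain (9 of 39) and 0.08 for effector genes (3 of 29, against 6 before). The 21 hold C1qc, Csf1r and Adgre1, which met the FPKM minimum through the WT group only. Xcl1, Gzma, Klf2, Hba-a1, Hba-a2, Mlana and 10 other named genes lost the call, and Havcr2 (-0.70), Pdcd1 (-0.82), Itgb2, Klra3, Lad1 and Mki67 gained it.

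**Figure D5:**
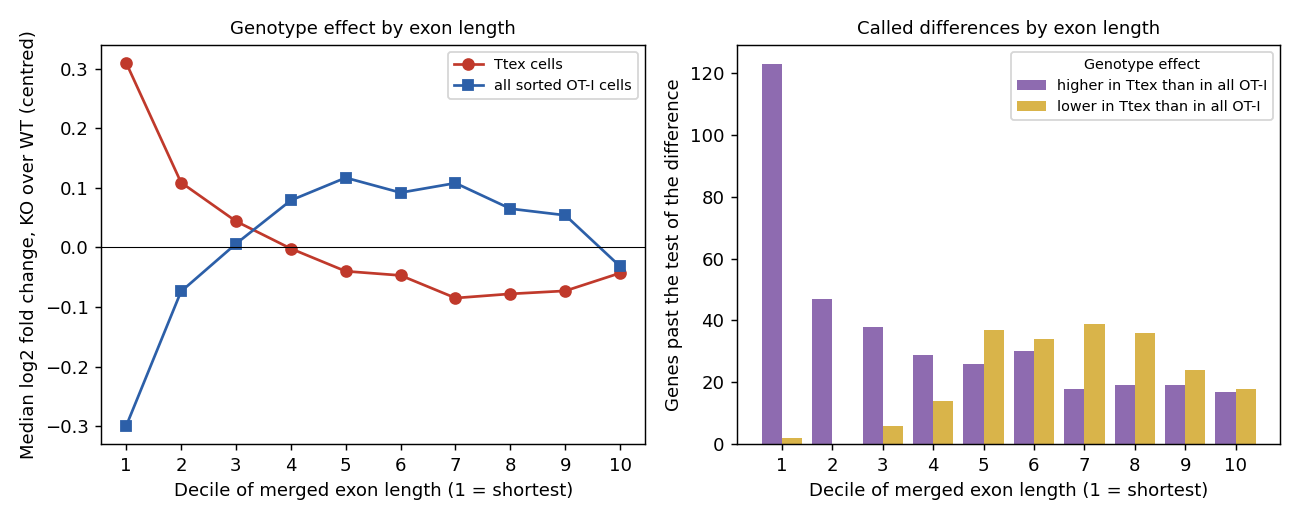
Left, median centred log2 fold change of KO over WT libraries by decile of merged exon length, in Ttex cells (red circles) and all sorted OT-I cells (blue squares). Right, number of genes past the test of the difference in each decile, higher (purple) or lower (yellow) in Ttex cells. The shortest decile has medians of 0.31 and -0.30 and 123 of the 366 higher calls.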

How the data were processed

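RNA of 8 libraries was analysed from 2 deposited tables. For all sorted OT-I cells the deposited values are FPKM made by the authors, beside their DESeq2 columns of mean normalized signal, log2 fold change, p-value and test score, named so per the file headers. The Ttex table gives normalized counts, a signal made by the authors by dividing counts by 1 size factor per library. The submitters' processing notes name the build mm10 and the tools RSEM, featureCounts, DESeq2, Bowtie2 and Trim Galore 0.4.4, without their roles. No source used here states strand use.

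Values were set to log2(value + 1), since neither table holds raw counts, and each library was centred on its median shared gene. Ttex lines of 19 repeated symbols, 38 in all, were left out. The difference was fitted with limma 3.58.1 (R 4.3.3) as an interaction over all 8 libraries with 4 residual degrees of freedom, and each genotype effect within its own table, with Benjamini-Hochberg adjustment over all genes tested and two-sided p-values. Whole reads were recovered for 100% of Ttex values (within 0.1 read). In all sorted OT-I cells the share was 98.4% to 98.5%, checked only on values above 0 with few enough reads. These were 12743 to 13215 values per library, of 17147 genes, and genes with more reads were not checked. edgeR 4.0.16 and DESeq2 1.42.0 were run on the recovered reads for 8936 genes as alternatives. The interaction fit was also run on simulated reads with the same dispersion for each gene and no length trend. Those settings differ from these libraries, so that run does not show how reliable the calls here are. Other alternatives changed the centring, pseudocount, filter, threshold, variance model and replicate block, left out each library or removed the length trend. Gene lengths are merged exons in GENCODE M21, and promoters are those of RefSeq (GRCm38.p6).

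The genes named were up to 8 per pattern and direction, up to 6 per direction changed in 1 population, up to 4 of each list past the test (members of higher level where none passed), and 12 named in any case, such as Zbtb32 and Tcf7. Pattern genes had means of at least 5 FPKM and 50 normalized counts. Members and lists were chosen with earlier results of these data known. Members of the lists and genes that are given beside a count were also named.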

Additional observations from a re-analysis of the deposited data

Results flagged for a closer look

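The test of the difference singled out 576 genes whose genotype effect differed between Ttex cells and all sorted OT-I cells. The 78 of them named here are given as the log2 effect in Ttex cells minus that in all sorted OT-I cells, limma adjusted p under the threshold for each. Their causes were not tested. Among macrophage, class II and related myeloid genes, the effect was higher in Ttex cells for Ccl8 by 3.68, Wfdc17 by 3.53, C1qb by 3.07, C1qa by 2.98, Tyrobp by 2.92, Fcer1g by 2.19, Apoe by 2.39, H2-Eb1 by 2.67, H2-Aa by 2.67, H2-Ab1 by 2.49, H2-DMb1 by 2.25 and Cd74 by 2.23. Among interferon response and cytokine genes, the effect was higher in Ttex cells for Ifng by 3.21, Ifitm3 by 2.66, Ifitm2 by 1.97, Rtp4 by 1.30, Cxcl9 by 2.09, Ccl1 by 1.90, Xcl1 by 1.74 and Gzma by 1.67. Among mitochondrial and ribosomal genes, the effect was higher in Ttex cells for Lars2 by 3.06, mt-Nd3 by 2.81, Atp5e by 1.42, Cox7b by 1.40, Cox6c by 1.35, Ndufa4 by 1.25, Rps27 by 1.45, Rpl26 by 1.39, Rpl35 by 1.28, Rpl22 by 1.16 and Higd1a by 0.96. Among T cell state and signalling genes, the effect was higher in Ttex cells for Tcf7 by 0.98, Klf2 by 0.99, Dapl1 by 2.81, Jund by 1.57, Atf3 by 1.56, Ier5 by 1.23, Zfp36l2 by 0.97, Dusp2 by 1.03, Dusp5 by 1.01, Fyn by 0.93 and Apobec2 by 1.72. Among globin and melanocyte genes, the effect was higher in Ttex cells for Hba-a1 by 1.6, Hba-a2 by 1.56 and Mlana by 1.29. Of other genes it was higher for Csrp1 by 1.78, Hnrnpab by 1.67, Odc1 by 1.62, Eif3b by 1.61, Gnai2 by 1.59 and Scpep1 by 0.71.

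The effect was lower in Ttex cells for Cd101 at -0.77, Ide at -0.82, Hspa1a at -0.88, Il4ra at -0.90, Slc2a3 at -0.90, Ciz1 at -0.91, Lss at -0.91, Pecam1 at -0.92, Csf1 at -0.95, Tcof1 at -0.98, Wdr6 at -1.07, Mical1 at -1.08 and Acly at -1.10. It was also lower for Clgn at -1.10, Rrp12 at -1.14, Rasa3 at -1.14, Bub1b at -1.16, Adgrg1 at -1.23, Myo1c at -1.25, Rtel1 at -1.30, Zfp335 at -1.31, Chpf2 at -1.32, Kcnk5 at -1.33, Dhx34 at -1.34, Ptpn5 at -1.52, Ctse at -1.62 and Marveld2 at -1.92. Of the 78 genes, 20 passed in every alternative run, among them C1qb, Ccl8, H2-Aa, Cd74, Ifng, Dapl1, Ctse and Marveld2. Without OT-I WT replicate 1, 57 of the 78 missed the threshold.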

How the results depend on the processing

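All 78 named differences past the test kept their sign in every alternative run, and 20 kept the call in all of them. The number of genes called for a difference, 576, was 1018 without centring, 935 with a pseudocount of 0.1 on FPKM, 313 without a filter, 1233 with 1 variance per gene and table, 1491 at a threshold of 0.1, 986 with edgeR and 1559 with DESeq2 on recovered reads. Leaving out 1 library gave 41 to 2074. edgeR shared 559 of the 576 calls and DESeq2 571.

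Within all sorted OT-I cells, 2093 genes of the table were called, against 3144 without centring, 9027 without a filter, 785 with the stricter filter of 5 FPKM and 50 normalized counts, and 891 to 2561 without 1 library. In Ttex cells the count was 15 of the table, against 3 without centring, 204 with DESeq2, and 8 to 1851 without 1 library (8 without Ttex WT replicate 2 and 1851 without Ttex KO replicate 2). It was 0 by limma without a filter, where 1683 of 13088 genes had an unadjusted p under 0.05, with 16 by edgeR and 204 by DESeq2 on filtered genes.

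The genes of the same direction in both populations, 49, were 32 without centring, 14 with the stricter filter and 10 at 2-fold, and those of opposite direction, 86, were 13 at 2-fold. Pearson's r was 0.018 without a filter, -0.31 with the stricter filter, -0.0683 with the length trend removed and -0.225 to -0.0599 without 1 library. These alternatives for r were chosen after the data were seen. The cause of these shifts was not tested.

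With the replicate number as a block, 2274 differences were called, with 3446 genes in all sorted OT-I cells and 605 in Ttex cells. Named differences that missed the threshold without the block and passed with it were those of Havcr2 (adjusted p = 0.00751), Pdcd1 (0.0135), Mki67 (0.00885), Itgb2 (0.00442), Lad1 (0.0214), Cyb5d1 (0.0158), Il1b (0.00213) and Zbtb32 (0.0421). KO and WT cells were given to the same mice, but the labels do not say that equal numbers pair the libraries. The deviations of equal numbers correlated at 0.289 in Ttex cells and 0.311 in all sorted OT-I cells, over 2 pairs each.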
